A study of Mus musculus with 32 samples.

Results

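The lung response to a mammary tumor was compared between CLIC4-Knockout (KO) and wildtype (WT) hosts. The response of a genotype was taken as its lungs at 14 days after implantation minus its control lungs, and the comparison was the KO response minus the WT response. All 20 lung samples of the 32 samples in the series entered it, namely 6 lungs of tumor-bearing KO mice, 4 control KO lungs, 6 lungs of tumor-bearing WT mice and 4 control WT lungs. The hosts were female virgin FVB/N mice from intercrosses of heterozygous parents. The KO is constitutive and removes a stretch around the second exon of *Clic4* in every host cell, so an effect that arises in lung cells and one that arises in blood cells or at the tumor cannot be told apart. The tumor-bearing mice carried 6DT1 cells, a line from a mammary tumor of an MMTV-Myc mouse that has intact *Clic4*, in the fourth mammary fat pad. The control lungs came from mice at baseline without a tumor. Each library came from a separate animal.

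A primary mammary tumor changes the lung before metastases can be seen. Factors released by the tumor reach the lung through the blood, myeloid cells are mobilized from the bone marrow, and resident fibroblasts and endothelial cells alter the extracellular matrix. CLIC4 is a chloride intracellular channel family protein that moves between cytosol and nucleus and takes part in TGF-β signaling and in vascular biology.

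RSEM counts per lung summed to between 4567220 and 8318711, and 16029 of 29511 genes had enough counts to be tested. *Clic4*, the deleted gene, was counted at 217.9, 210.4, 257.5 and 249.7 CPM (counts scaled to library size) in control KO lungs and at 675.4, 636.6, 624.8 and 628.2 CPM in control WT lungs. At 14 days its lowest, median and highest CPM were 224.9, 247.0 and 286.8 in KO lungs and 603, 647.9 and 882.2 in WT lungs. The genotypes did not overlap at either time, as the genotype labels would have it, and the counts that remain in KO lungs lie in a gene of which only a part is deleted. Alveolar type 2 genes had a mean level of 7.87 to 8.38 log2 CPM and alveolar type 1 genes of 8.01 to 8.22 log2 CPM across the lungs, against 1.61 to 2.69 log2 CPM for skeletal muscle genes. The 14-day KO lung 2, the 14-day WT lung 5 and, less so, the control WT lung 4 stood apart by interferon target genes, and the results that rest on them are given with and without the first and second of these.

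A trend with GC content ran through the libraries and aligned with the groups. The median log2 level of GC-rich genes relative to GC-poor genes had a group mean of -0.134 in control KO lungs, 0.00456 in 14-day KO lungs, 0.186 in control WT lungs and -0.0291 in 14-day WT lungs. In the GC-richest of 10 equal bins of genes, 311 genes had a KO response above the WT response at an unadjusted p below 0.05 and 3 had one below it. In the GC-poorest bin, 16 were above and 115 below. With an offset for the GC trend of each library, these counts were 73 and 45 in the richest bin and 44 and 28 in the poorest. Across 15950 genes, the correlation of the difference with GC content was 0.286 without and 0.00676 with the offsets, as a description of genes that share libraries. What part of a difference between the responses comes from this trend was not tested. Values with GC offsets are given below for part of the lists and genes, and all other values are without them.

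**Figure D1:**
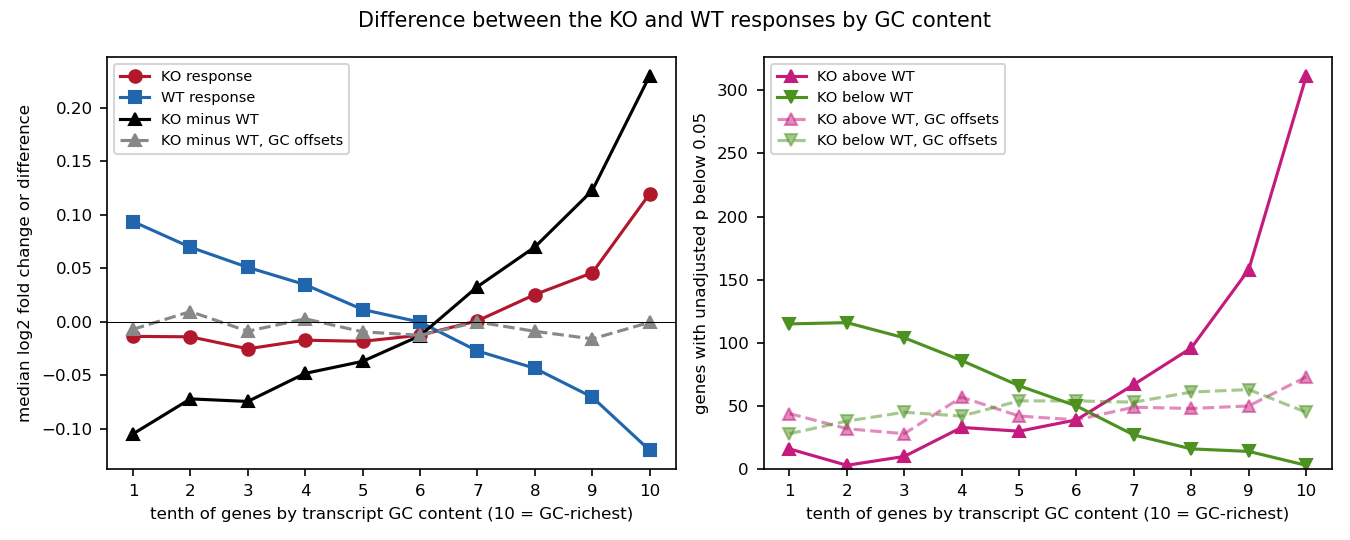
Median log2 KO response, WT response and their difference (KO minus WT) by GC content of the gene in 10 bins. Beside them are the numbers of genes with an unadjusted p below 0.05 for the difference in each bin and direction, with and without GC offsets. Without offsets the median difference runs from -0.10 in the GC-poorest bin to 0.23 in the GC-richest.

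Between the genotypes, 8 of 16029 genes differed in their response at a false discovery rate (FDR, the Benjamini-Hochberg adjusted p of edgeR's quasi-likelihood test) below 0.25, which is 0.0499% of the genes tested. All 8 rose in KO lungs (FDR below 0.25) and had negative WT values, so the point estimates ran in opposite directions. No gene that passed had point estimates of the same sign in both genotypes. DESeq2 called 195 genes, 189 with opposite signs and 6 with the same sign, and 16 with GC offsets, while edgeR called 1 with GC offsets. The number of genes that passed depended on single lungs, with 127 without the control KO lung 1, 123 without the 14-day WT lung 3, 32 without the control WT lung 1 and 15 without the 14-day KO lung 2 or 4. It was 1 to 3 without the 14-day KO lung 1, 3 or 5, the 14-day WT lung 1 or 6, the control KO lung 2, 3 or 4, or the control WT lung 2 or 3. At an unadjusted p below 0.05, 766 genes (4.78%) had a KO response above the WT response and 601 (3.75%) had one below it, and those above made up 56.0% of these. With GC offsets, 465 were above and 487 below, and the share above was 48.8%.

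The responses of each genotype alone and of both together were tested in the same fit. Within a genotype, a gene was called at an FDR below 0.25 and a change of more than 1.5-fold, which 42 genes (0.262%) passed in KO lungs and 92 (0.574%) in WT lungs. With GC offsets 25 passed in KO and 53 in WT lungs, with DESeq2 43 and 22, and without the 4 lungs at the ends of the GC trend (control KO 2, control WT 2 and 3, 14-day WT 5) 28 and 0, so the order of the 2 numbers depended on the processing. These numbers also rested on single lungs, with 2 and 4 in KO lungs without the control KO lungs 2 and 3, 18 to 21 without the 14-day KO lung 1, 3 or 4 or the control KO lung 4, 11 in WT lungs without the control WT lung 2, 21 and 24 without the control WT lungs 1 and 3, 36 without the 14-day WT lung 6, and 176 without the 14-day WT lung 3. The average of both responses passed an FDR of 0.25 for 769 genes (4.8%), with 398 higher at 14 days (2.48%) and 371 lower (2.31%). Without the control KO lung 1 or the control WT lung 1 this number was 383 and 390. A gene was classed as shared when its average response was called, both genotypes had the same sign and the 95% interval of the difference lay within 1.5-fold on either side. This held for 467 genes (2.91%), with 219 higher and 248 lower at 14 days. A further 344 genes (2.15%) were called in some response but could be placed neither as different nor as shared. Their median interval of the difference was 1.18 wide on the log2 scale, against 0.51 for shared genes. Of these undecided genes, 291 had responses of the same sign in both genotypes and 53 of opposite sign. Among the 15210 genes called in no response, 7643 had the same sign in both genotypes and 7567 opposite signs.

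**Figure D2:**
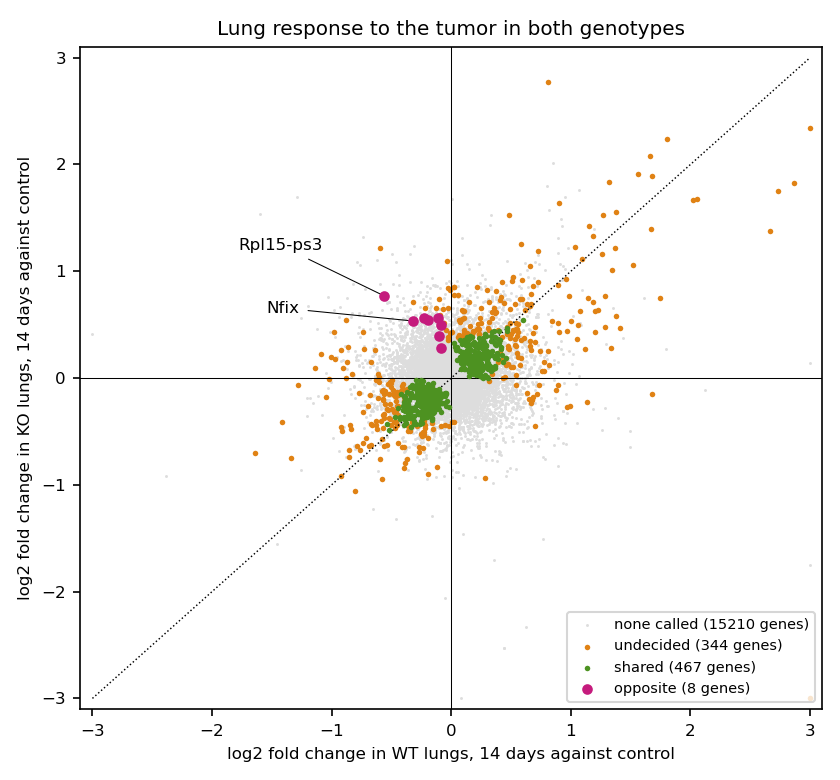
Log2 response of each tested gene in WT lungs (horizontal axis) and KO lungs (vertical axis), 14-day minus control, with the opposite, shared and undecided genes marked. The 8 opposite genes lie above 0 for KO and below 0 for WT, and 7 genes beyond 3 on either axis are drawn at the edge.

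Few genes called in one genotype were placed by the comparison with the other. Of the 42 genes called in KO lungs, 29 had a WT response of the same sign and 13 of the opposite sign, 23 had an unadjusted p below 0.05 for the difference and 1 passed the FDR. Of the 92 genes called in WT lungs, 60 had a KO response of the same sign and 32 of the opposite sign, 45 had an unadjusted p below 0.05 for the difference and none passed an FDR of 0.25 in edgeR. A call in one genotype alone therefore did not place a gene as different.

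The gene with the clearest difference was *Nfix* (ENSMUSG00000001911, GRCm38 chromosome 8 from 84699876 to 84800344, minus strand), a nuclear factor I transcription factor. In control KO lungs it had 47.2, 49.67, 35.82 and 44.18 CPM and in 14-day KO lungs a lowest, median and highest value of 58.17, 63.16 and 70.24 CPM. In control WT lungs it had 52.32, 66.2, 70.2 and 60.1 CPM and in 14-day WT lungs 43.03, 49.57 and 54.51 CPM. All tumor-bearing KO lungs lay above all control KO lungs, while in WT lungs the highest 14-day lung passed the lowest control. Control KO lungs lay below control WT lungs and 14-day KO lungs above 14-day WT lungs, without overlap. *Nfix* rose by 0.53 on the log2 scale in KO lungs (SE 0.09, FDR 0.0398) and fell by 0.32 in WT lungs (SE 0.09, FDR 0.186). Both changes are less than 1.5-fold. The difference was 0.86 (SE 0.13, 95% interval 0.59 to 1.13, FDR 0.024), the smallest FDR of all genes and the only one below 0.05. With each lung left out in turn it was 0.77 to 0.94, with an FDR of at most 0.108. With GC offsets it was 0.69 (FDR 0.034). Without the 4 lungs at the ends of the GC trend (control KO 2, control WT 2 and 3, 14-day WT 5), which leaves 3 control KO and 2 control WT lungs, no gene passed. The difference for *Nfix* was then 0.74 (FDR 0.632), and the 8 genes that passed with all lungs kept their sign.

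The other nuclear factor I genes, which encode proteins that bind the same palindromic DNA motif, did not show one pattern. *Nfic* had 55.22, 44.02, 38.73 and 46.64 CPM in control KO lungs and 59.32 to 84.45 CPM at 14 days, without overlap, and 48.34 to 73.11 CPM in control WT lungs against 39.33 to 70.29 CPM at 14 days. Its difference was 0.72 (SE 0.20, 95% interval 0.31 to 1.13), which missed the threshold (FDR 0.312). *Nfia* had a difference of -0.04 (95% interval -0.19 to 0.12) and *Nfib* of -0.02 (-0.16 to 0.13), so for both a difference of 1.5-fold lies outside the interval. Per transcript length, *Nfib* had the highest levels of the family, with mean FPKM of 59.7 to 62.3 over the groups, against 20.3 to 27.5 for *Nfix* and 11.96 to 19.1 for *Nfic*.

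*Ltbp4* (ENSMUSG00000040488, chromosome 7 from 27305136 to 27337692), which binds latent TGF-β and is needed for elastic fiber assembly in the lung, had 186.7, 167.3, 144.1 and 181.1 CPM in control KO lungs and 214, 244.3 and 302.9 CPM (lowest, median, highest) at 14 days. In WT lungs the controls had 188.1, 245.7, 275.5 and 209.3 CPM and the 14-day lungs 162.1, 191.1 and 233.1 CPM. KO groups did not overlap and WT groups did. *Ltbp4* rose by 0.56 in KO lungs (SE 0.12, FDR 0.106), had a WT value of -0.23 (SE 0.11, FDR 0.442) and a difference of 0.79 (SE 0.16, FDR 0.205). *Mgat4b* (ENSMUSG00000036620, chromosome 11 from 50210890 to 50235103), a Golgi enzyme that branches N-glycans, had 23.51, 24.35, 20.49 and 21.8 CPM in control KO lungs and 26.25, 31.74 and 34.88 CPM at 14 days. It had 28.69, 25.28, 26.61 and 26.73 CPM in control WT lungs and 24.17, 25.38 and 26.83 CPM at 14 days. The 14-day KO lungs lay above the control KO lungs, and the WT groups overlapped. The difference for *Mgat4b* was 0.58 (SE 0.11, FDR 0.157). *Lrp10* (ENSMUSG00000022175, chromosome 14 from 54464137 to 54471497), an LDL receptor family protein of the endosomal route, was at 54.98 to 59.14 CPM in control KO lungs and 69.61 to 79.77 CPM at 14 days, and at 59.8 to 76.42 CPM and 57.67 to 69.55 CPM in WT lungs. All 14-day KO lungs were above all 14-day WT lungs, and the difference was 0.50 (SE 0.10, FDR 0.178).

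*Prrc2a* (ENSMUSG00000024393, chromosome 17 from 35149076 to 35164897), an RNA-binding protein encoded in the major histocompatibility complex (MHC) region, had 135.6, 112.8, 99.4 and 117.7 CPM in control KO lungs and 151.9, 171.7 and 182.9 CPM at 14 days. Its control WT lungs had 124.9, 172.6, 184.7 and 131.7 CPM and its 14-day WT lungs 109.7, 132 and 164 CPM. KO groups lay apart, and the other 3 pairs of groups overlapped, controls of both genotypes included. The difference for *Prrc2a* was 0.74 (SE 0.16, FDR 0.218). *Zc3h7b* (ENSMUSG00000022390, chromosome 15 from 81745057 to 81796260), a CCCH zinc finger protein, had the smallest difference, 0.37 (SE 0.08, FDR 0.218), with 85.31 to 94.96 CPM in control KO lungs and 105.5 to 118 CPM at 14 days. *Rnf44* (ENSMUSG00000034928, chromosome 13 from 54679399 to 54693907), a RING finger protein, was at 32.27 to 39.18 CPM in control KO lungs and 49.27 to 56.7 CPM at 14 days, against 42.08 to 58.5 and 38 to 51.93 CPM in WT lungs, with a difference of 0.67 (SE 0.14, FDR 0.205). KO groups did not overlap for *Zc3h7b* or *Rnf44*.

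The eighth gene, *Rpl15-ps3* (ENSMUSG00000061167, chromosome 9 from 22185607 to 22186221), is a processed pseudogene whose reads cannot be told safely from those of *Rpl15*. It had 12.5, 12.66, 19.52 and 18.2 CPM in control KO lungs and 19.44, 28.91 and 32.11 CPM at 14 days, against 24.59, 31.1, 29.25 and 35.64 CPM in control WT lungs and 15.92, 19.51 and 26.98 CPM at 14 days. In KO lungs only the lowest 14-day lung lay below the highest control, and the WT groups overlapped. The difference was 1.33 (SE 0.25, FDR 0.157), the largest of the 8.

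The direction held for all 8 genes in every alternative run, but the size and the calls did not. Their GC content was 53.3 to 62.2%, above the median of 48.9% of all genes, and with GC offsets the differences were 0.24 to 1.26 and only *Nfix* was called. With each of the 20 lungs left out in turn, *Nfix* was called in all 20 fits, *Rpl15-ps3* in 14, *Mgat4b* in 12, *Lrp10* in 10, *Ltbp4* and *Rnf44* in 9 each, *Zc3h7b* in 8 and *Prrc2a* in 7. The KO responses of all 8 had 95% intervals above 0. The WT response had an interval below 0 for 2, *Nfix* and *Rpl15-ps3*, and included 0 for the other 6. Their KO lungs were lower than WT lungs in controls and higher at 14 days by the point estimates of all 8, and these genotype contrasts use the same samples as the difference and add nothing independent.

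**Figure D3:**
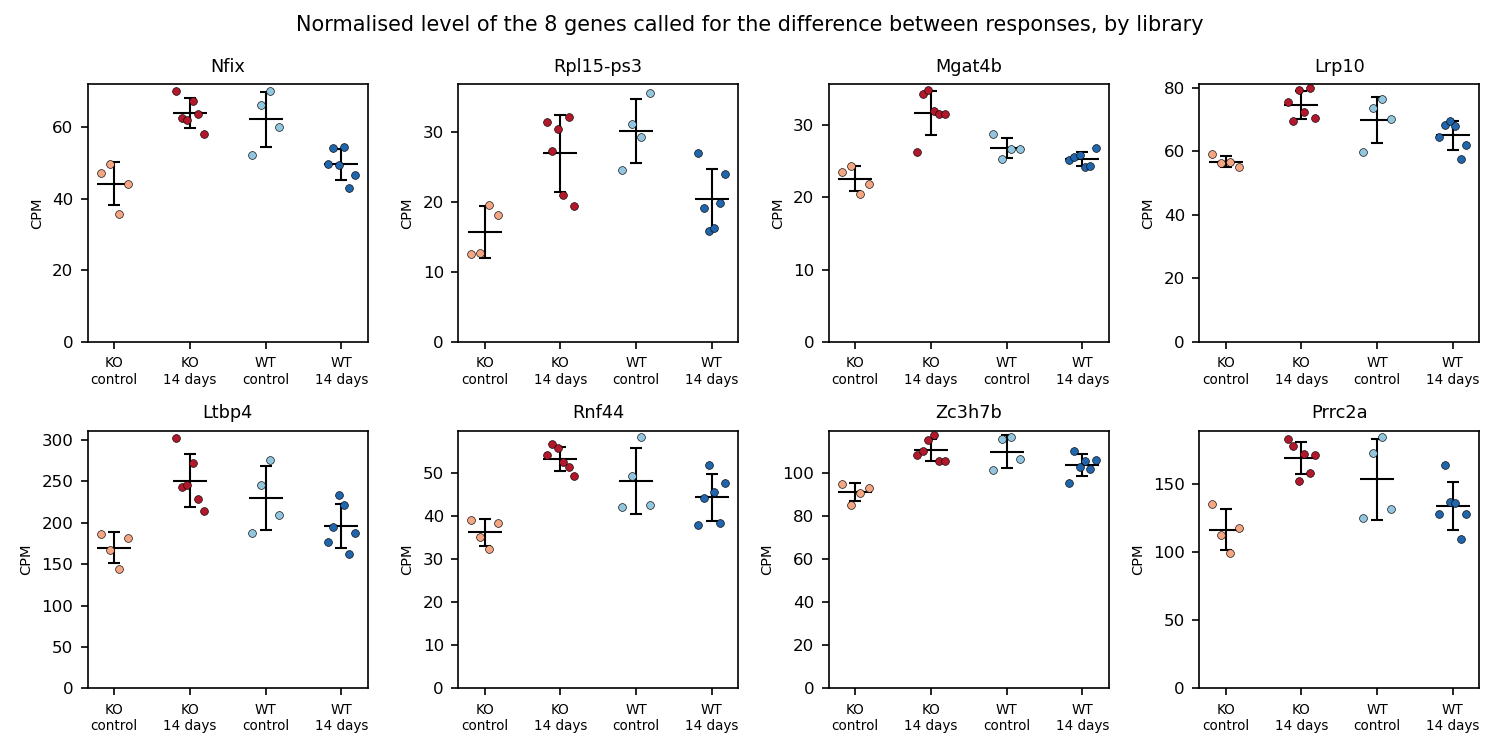
CPM of the 8 genes in each of the 20 lungs by group, with a horizontal line at each group mean. KO lungs at 14 days lie above KO controls without overlap for 7 genes, and WT groups overlap for all 8. The 8 genes were selected by a test on these same lungs, so this separation is not a further result. Overlap was not counted over all genes tested.

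Next in order of p among genes with a KO response above the WT response were *Epn1* and *Zmiz2* (FDR 0.258 for both). *Epn1*, an endocytic adaptor, had a difference of 0.49 (SE 0.11). *Zmiz2*, a transcriptional coregulator, had one of 0.87 (SE 0.19). *Klk1*, tissue kallikrein, had the largest difference of the genes nearest the threshold, 1.82 (SE 0.40, FDR 0.274). It was at 0.746, 0.974, 1.29 and 0.569 CPM in control KO lungs and at 1.31, 2.30 and 2.99 CPM at 14 days, against 2.89, 3.09, 3.21 and 2.75 CPM in control WT lungs and 0.984, 2.03 and 2.65 CPM at 14 days. Control and 14-day lungs did not overlap in either genotype, in opposite order, at a level of few counts per library.

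No gene with a KO response below the WT response passed the threshold in edgeR, where 601 had an unadjusted p below 0.05, and the smallest FDR was 0.294, for *Tmf1*. *Tmf1*, a Golgi golgin, had 98.02, 90.39, 90.76 and 94.12 CPM in control WT lungs and 109.9, 112.7 and 115.5 CPM at 14 days, without overlap, and 100.7 to 112.2 CPM and 89.34 to 112.6 CPM in KO lungs. Its difference was -0.35 (SE 0.08). *Ssbp1*, the mitochondrial single-stranded DNA-binding protein, had a difference of -0.70 (SE 0.18) and *Prkab2*, a regulatory subunit of AMP-activated kinase, of -0.59 (SE 0.14). *Acaca*, the acetyl-CoA carboxylase that starts fatty acid synthesis, had -0.41 (SE 0.10) and *Dsp*, the desmosomal plaque protein, -0.32 (SE 0.09), each at an FDR of 0.3. *Prkab2* and *Dsp* were lower in all 14-day KO lungs than in all control KO lungs and overlapped in WT lungs.

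Gene lists for cell types, complexes and pathways were described by their counts and medians beside those of all genes tested, without a test of the list. Over all genes the median difference was 0.00, and 8033 of 16029 were above 0. At an unadjusted p below 0.05, 4.78% of all genes were above and 3.75% below. The counts of members at such a p in every list are to be read beside these shares. Of 79 lists, 15 had a median difference beyond 0.25 in either direction. Without the 4 lungs at the ends of the GC trend, 389 genes were above and 382 below at an unadjusted p of 0.05, against 766 and 601 with all lungs, from fewer control lungs. In that fit such members numbered 5 of 19 B cell, 1 of 24 T cell and 4 of 46 histone genes above, 4 cytotoxic and NK genes above and 0 below, and 1 of 15 adipocyte, 2 of 24 cardiac muscle and 1 of 22 heat shock genes below. In bulk tissue, fewer cells of a type and less RNA per cell cannot be told apart.

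**Figure D4:**
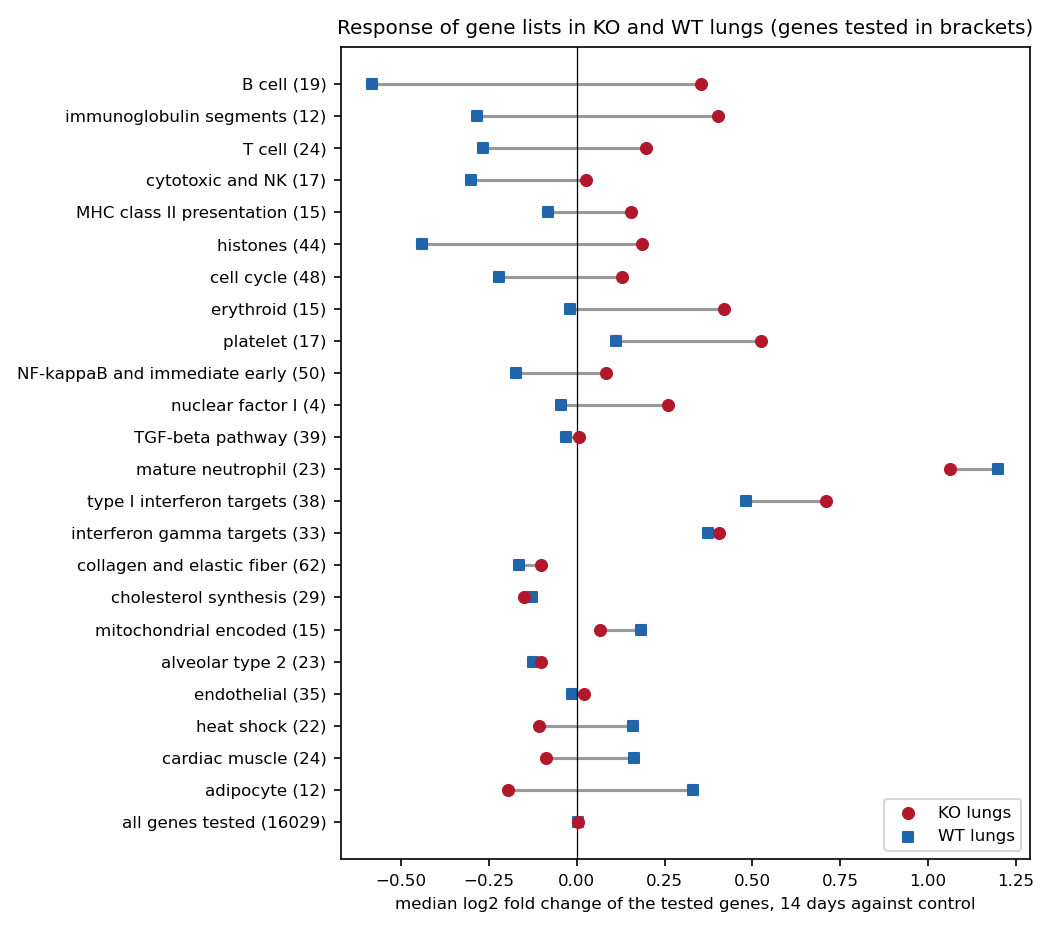
Median log2 response of the tested genes of 24 lists in KO lungs and in WT lungs, 14-day minus control. B cell genes and histones have positive KO and negative WT medians, adipocyte genes the reverse, and mature neutrophil genes are above 1 in both genotypes.

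MHC class II molecules present antigen from outside the cell to CD4+ T cells, and their genes are driven together by the CIITA, RFX and NF-Y proteins at a shared promoter module. Part of this module is the Y box, whose core is GATTGG in the direction of the gene. The 120 bases before the start of 4 class II genes, chosen to show the core in an α chain gene (*H2-Aa*) and in genes of peptide loading, are given from RefSeq on GRCm38.p6, 5′ to 3′ on the strand of the gene, with the core in capitals.
H2-Oa, chr17:34092259-34092378 (+): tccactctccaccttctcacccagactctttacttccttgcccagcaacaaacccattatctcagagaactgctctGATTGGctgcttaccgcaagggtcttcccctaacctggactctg
H2-DMb2, chr17:34145129-34145248 (+): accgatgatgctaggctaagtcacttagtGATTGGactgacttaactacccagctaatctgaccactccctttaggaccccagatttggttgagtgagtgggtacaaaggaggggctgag
H2-DMb1, chr17:34153071-34153190 (+): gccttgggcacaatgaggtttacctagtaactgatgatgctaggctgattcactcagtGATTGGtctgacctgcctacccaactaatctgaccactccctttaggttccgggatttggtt
H2-Aa, chr17:34287824-34287943 (-): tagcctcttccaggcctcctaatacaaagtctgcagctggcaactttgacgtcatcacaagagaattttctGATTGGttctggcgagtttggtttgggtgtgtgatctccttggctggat
The core begins 44 bases before the start in *H2-Oa*, 91 in *H2-DMb2*, 62 in *H2-DMb1* and 49 in *H2-Aa*. On either strand, GATTGG was also counted in the whole promoter sequences, which are longer than the 120 bases shown. It was found in those of 9 of the 12 list members that could be matched of 16, and in 16.1% of 32851 promoters. *H2-Ab1* and *Cd74* were not matched.

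Of the 16 class II presentation genes, 15 were tested, and 13 of these had a KO response above the WT response, with a median KO response of 0.15, a median WT response of -0.08 and a median difference of 0.27. An unadjusted p below 0.05 was found for 5 (33.3%), all with the KO response above, against 4.78% of all genes. None passed the FDR for the difference in edgeR. *H2-Ab1*, a class II β chain, had 153.9, 177.8, 171.8 and 137.1 CPM in control KO lungs and 176.8, 200.1 and 228.1 CPM at 14 days, against 199.5, 161.1, 183.4 and 183.4 CPM in control WT lungs and 149.4, 163.2 and 177.8 CPM at 14 days. Among KO lungs only the highest control and the lowest 14-day lung crossed, and the WT groups overlapped. Its difference was 0.49 (SE 0.12, 95% interval 0.24 to 0.74, FDR 0.3). *Cd74*, the invariant chain, was at 704.8, 712.7, 701.3 and 575.8 CPM in control KO lungs and at 743.4 to 968.6 CPM at 14 days, and at 622.9 to 775.2 CPM and 552.3 to 693.6 CPM in WT lungs. All 14-day KO lungs were above all control KO lungs and all 14-day WT lungs, and the difference was 0.44 (SE 0.13, FDR 0.349).

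The genes whose promoters are given above had differences of 0.24 to 1.40. *H2-Oa*, which modulates peptide loading in B cells, had a difference of 1.40 (SE 0.44, unadjusted p = 0.00455). *H2-DMb2*, a subunit of the loading factor DM, had 0.52 (SE 0.20, unadjusted p = 0.0155), and its paralog *H2-DMb1* 0.36 (95% interval -0.01 to 0.74), where reads may be split between both. *H2-Aa* had 0.24 (95% interval -0.08 to 0.55). *H2-Eb1*, a β chain gene that also holds the core, had -0.20 (SE 0.39). *H2-DMb1*, *H2-Aa* and *H2-Eb1* were chosen after their values were seen. With GC offsets the median difference of the class II list was 0.28, with each lung left out it was 0.22 to 0.35, and without the 4 lungs at the ends of the GC trend it was 0.42. The control KO lung 4 had the lowest class II level of its group, 4.54 log2 CPM against 4.94 to 5.01 in the other 3.

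Genes of B cells had the largest median difference of the cell type lists described. All 19 tested had a KO response above the WT response, 18 with a positive KO and a negative WT value, and the medians were 0.35 in KO lungs, -0.58 in WT lungs and 0.88 for the difference. An unadjusted p below 0.05 was found for 8 (42.1%), against 4.78% of all genes, and none passed the FDR. The mean level of the list was 3.18, 3.46, 3.46 and 2.20 log2 CPM in control KO lungs and 2.46, 3.34 and 4.31 log2 CPM (lowest, median, highest) at 14 days, against 3.95, 3.52, 3.75 and 3.75 log2 CPM in control WT lungs and 2.33, 3.08 and 3.66 log2 CPM at 14 days. The control WT lungs were higher than all control KO lungs, and only 1 of the 4 control WT lungs fell within the range of the 14-day WT lungs. *Cd79a*, which signals for the B cell receptor, had 6.53, 9.74, 8.39 and 2.84 CPM in control KO lungs and 4.12, 10.4 and 16.8 CPM at 14 days, against 17.1, 13.6, 16.2 and 12.6 CPM in control WT lungs and 4.33, 7.28 and 13.5 CPM at 14 days, a difference of 1.44 (SE 0.48, unadjusted p = 0.00626, FDR 0.418). *Blk*, a B cell kinase, had a difference of 1.62 (SE 0.53), *Fcrla* of 1.87 (SE 0.64), *Spib*, a B cell and plasmacytoid dendritic cell factor, of 1.00 (SE 0.39) and *Ighm*, the IgM heavy chain, of 0.88 (SE 0.39). The median was 0.89 with GC offsets, 0.70 to 1.04 with each lung left out and 1.01 without the 2 lungs with high interferon targets.

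Other lymphocyte genes had the same sign with smaller values. All 24 tested T cell genes were above 0 in the difference, with medians of 0.20 in KO lungs, -0.27 in WT lungs and 0.43 for the difference. An unadjusted p below 0.05 was found for 5 (20.8%), against 4.78% of all genes. This number was 3 with GC offsets and 1 without the 4 lungs at the ends of the GC trend, where the median difference was 0.51. *Cd3e* and *Cd5*, surface proteins of T cells, had differences of 0.80 (SE 0.33) and 1.09 (SE 0.45), and *Zap70*, the kinase of the T cell receptor, of 0.73 (SE 0.33). Of 12 tested immunoglobulin segments (of 221 in the count table), 11 were above 0, with a median of 0.56 that was 0.23 without the control KO lung 4, 0.32 without the control KO lung 2 and at most 0.75 without any other lung, and reads of these segments may be shared. The 17 cytotoxic and NK genes had a median of 0.31, which was 0.06 without the control KO lung 4, 0.14 without the control WT lung 4, 0.15 without the 14-day KO lung 5, 0.48 without the control KO lung 3 and 0.58 without the 14-day WT lung 3. Without the 4 lungs at the ends of the GC trend it was 0.57. Their members did not all run one way, since *Prf1*, perforin, had 0.86 (SE 0.36) and *Cd160*, an NK receptor, -0.71 (SE 0.33). With GC offsets, 1 gene was above and 0 below at an unadjusted p of 0.05. Dendritic cell genes had a median of 0.21 over 17, with 10 above and 7 below 0. At an unadjusted p of 0.05, 3 were above (17.6%, against 4.78% of all genes), or 2 with GC offsets. *Siglech*, a plasmacytoid dendritic cell receptor, had 1.15 (SE 0.46), *Fscn1* 0.74 (SE 0.26) and *Irf8* 0.59 (SE 0.19). Genes of lymphoid and thymus tissue had a median difference of 0.34 over 7, with 6 above and 1 below 0, or 0.20 with GC offsets. Where the lymphocytes and dendritic cells sat, in blood or in tissue, was not tested.

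Replication-dependent histone genes, which are transcribed in S phase, had one of the largest differences. Of 76 in the count table, 44 were tested and 43 had a KO response above the WT response. An unadjusted p below 0.05 was found for 14 (31.8%), all with the KO response above, against 4.78% of all genes. The medians were 0.19 in KO lungs, -0.44 in WT lungs and 0.71 for the difference. Their mean level was 2.76, 2.52, 2.39 and 2.40 log2 CPM in control KO lungs and 2.50, 2.699 and 3.05 log2 CPM at 14 days, against 3.18, 3.33, 3.14 and 2.83 log2 CPM in control WT lungs and 2.06, 2.69 and 3.096 log2 CPM at 14 days. The control WT lungs stood above all control KO lungs, and at 14 days the medians of both genotypes were nearly equal. *Hist1h2bk*, an H2B gene, had 5.41, 2.92, 3.71 and 5.31 CPM in control KO lungs, 4.85, 6.36 and 7.63 CPM at 14 days, 8.80, 9.09, 7.36 and 6.48 CPM in control WT lungs and 1.59, 4.58 and 6.23 CPM at 14 days. WT groups did not overlap, and the difference was 1.42 (SE 0.33, FDR 0.294). The libraries were made from mRNA, and how well transcripts without a poly(A) tail were captured in each was not tested. Noncoding 7S RNAs made up 10.1 to 11.8% of counts in control WT lungs and 8.33 to 10.3% in 14-day WT lungs. In KO lungs these shares were 8.60 to 10.3% in controls and 9.02 to 11.2% at 14 days. Their relation to the histone levels was not tested. The median was 0.67 with GC offsets, 0.54 to 0.80 with each lung left out and 0.43 without the 4 lungs at the ends of the GC trend, where 4 genes had an unadjusted p below 0.05.

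Cell cycle genes had a median KO response of 0.13, a WT response of -0.22 and a difference of 0.41, with 45 of 48 above 0. An unadjusted p below 0.05 was found for 5 (10.4%, against 4.78% of all genes), or 8 with GC offsets. The median difference was 0.27 without the control WT lung 1, and 0.25 with 3 such genes without the 2 lungs with high interferon targets. *Foxm1*, a mitotic transcription factor, had a difference of 0.97 (SE 0.38), *Aurkb*, a mitotic kinase, of 1.00 (SE 0.41), and the replication helicase subunits *Mcm5*, *Mcm2* and *Mcm3* of 0.61 (SE 0.24), 0.60 (SE 0.25) and 0.49 (SE 0.22). The control WT lungs fell into a high and a low pair, with list levels of 3.42 and 3.40 log2 CPM in lungs 1 and 2 and of 2.53 and 2.68 log2 CPM in lungs 3 and 4, against 2.60 to 2.82 log2 CPM in control KO lungs. Erythroid genes were likewise at 6.201 and 6.14 log2 CPM in control WT lungs 1 and 2 and at 5.10 and 5.22 log2 CPM in lungs 3 and 4. All 15 erythroid genes had a difference above 0 and none an unadjusted p below 0.05, with a median of 0.48 that was 0.14 without the 14-day KO lung 6, which had the highest erythroid level, and 0.22 without the control WT lung 1. Platelet genes had a median of 0.38, with 13 above and 4 below 0, which was 0.22 with GC offsets, 0.23 without the control WT lung 2 and 0.21 without the 4 lungs at the ends of the GC trend. Of the 17 genes, 1 had an unadjusted p below 0.05 (5.88%, against 4.78% of all genes), and 0 had one with GC offsets. This gene was *Gp1bb*, a subunit of the von Willebrand factor receptor, with a difference of 1.51 (SE 0.58).

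**Figure D5:**
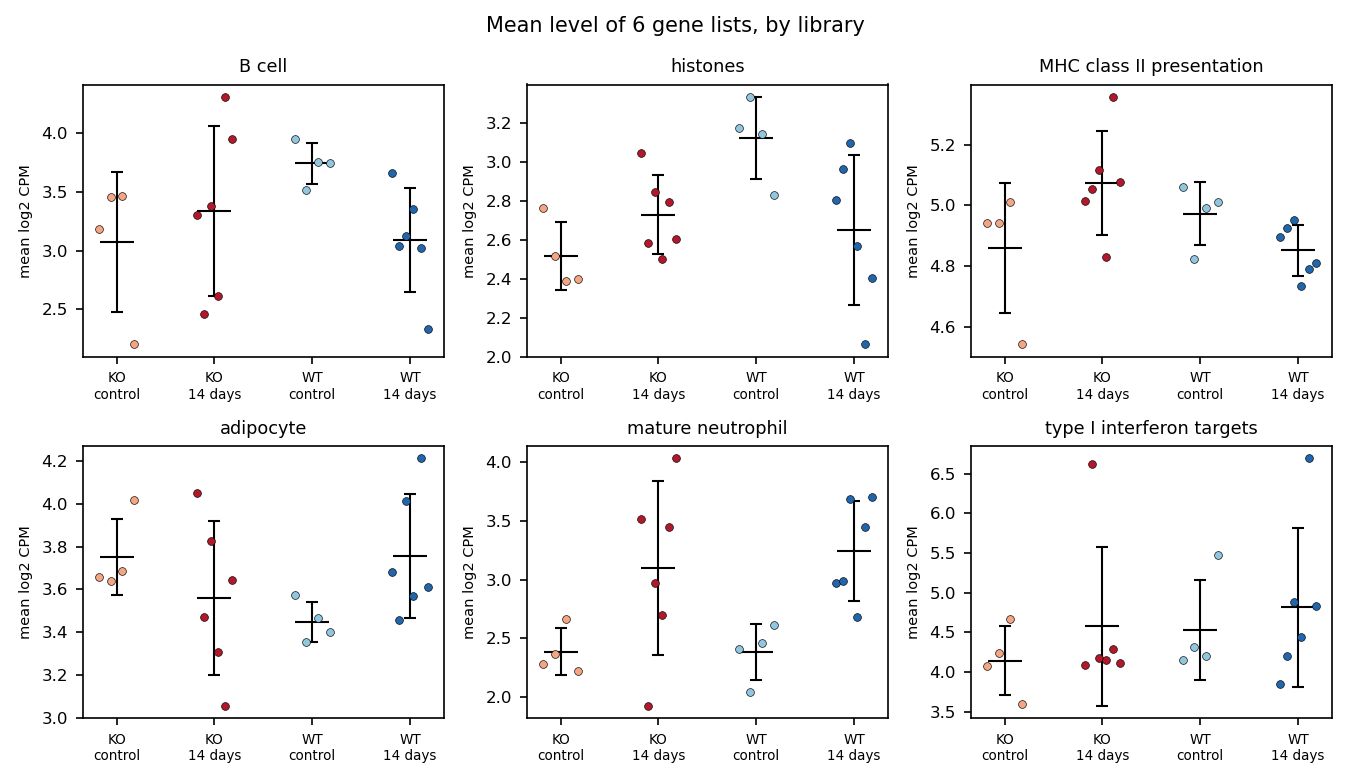
Mean log2 CPM of the genes of 6 lists (B cell, histones, MHC class II presentation, adipocyte, mature neutrophil and type I interferon targets) in each of the 20 lungs by group. B cell and histone levels in control WT lungs lie above those of control KO lungs, and 1 lung in each 14-day group stands far above the others for the interferon targets.

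Adipocyte genes ran the other way. Of 18 listed, 12 were tested, and 9 had a KO response below the WT response. The medians were -0.20 in KO lungs, 0.33 in WT lungs and -0.53 for the difference. At an unadjusted p of 0.05, 5 were below (41.7%, against 3.75% of all genes). Their mean level was 3.66, 3.64, 3.69 and 4.02 log2 CPM in control KO lungs and 3.06, 3.56 and 4.05 log2 CPM at 14 days, against 3.57, 3.36, 3.47 and 3.40 log2 CPM in control WT lungs and 3.46, 3.65 and 4.21 log2 CPM at 14 days. Control KO lungs were above all control WT lungs. *Fabp4*, a fatty acid binding protein, had 17.5, 23.4, 21.1 and 33.2 CPM in control KO lungs, 8.38, 19.5 and 27.8 CPM at 14 days, 15.3, 13.8, 10.2 and 16.2 CPM in control WT lungs and 14.2, 20.5 and 43.6 CPM at 14 days. Its difference was -1.05 (SE 0.40, unadjusted p = 0.0156). *Cfd*, adipsin, had -0.95 (SE 0.41), *Pck1*, the gluconeogenic enzyme, -1.54 (SE 0.65), and the lipid droplet proteins *Cidec* and *Plin4* -0.60 (SE 0.25) and -0.46 (SE 0.21). Endothelial cells also express *Fabp4*, and adjoining fat in the dissected tissue was not tested. The median was -0.68 with GC offsets and -0.79 to -0.42 with each lung left out. Without the 2 lungs with high interferon targets, of which the 14-day WT lung 5 had the highest adipocyte level, it was -0.33 and 1 gene had an unadjusted p below 0.05.

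Cardiac muscle and heat shock genes had smaller medians in the same direction. Of 24 cardiac muscle genes, 18 were below 0 in the difference and 4 had an unadjusted p below 0.05, with a median of -0.24. The median was -0.13 without the 14-day WT lung 5, -0.15 without the control WT lung 1, the control KO lung 3 or the 4 lungs at the ends of the GC trend, and -0.12 without the 2 lungs with high interferon targets. *Ryr2*, the cardiac calcium release channel, had 69.96, 79.66, 83.26 and 83.61 CPM in control KO lungs and 54.04, 61.0 and 72.17 CPM at 14 days, and 66.31 to 86.24 and 73.26 to 110.4 CPM in WT lungs, a difference of -0.51 (SE 0.15, unadjusted p = 0.00279). At 14 days the KO lungs were below all WT lungs for *Ryr2* and for *Myh6*, the atrial myosin heavy chain (-0.41, SE 0.16). Pulmonary veins of the mouse carry cardiac muscle, and the amount of vein or heart tissue in each lung was not tested. Heat shock genes had a median of -0.30, with 19 of 22 below 0 and 2 below at an unadjusted p of 0.05, or 0 with GC offsets, and without the control KO lung 4, whose level of 6.65 log2 CPM was the highest of all lungs, the median was -0.10. Without the 2 lungs with high interferon targets it was -0.41, with 8 genes at such a p, and without the 4 lungs at the ends of the GC trend it was -0.43. *Hspa4l* and *Hsp90aa1*, chaperones, had differences of -0.53 (SE 0.21) and -0.50 (SE 0.23).

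The shared genes with the smallest p of the average response that fell included 3 genes of the extracellular matrix. *Cracr2a*, a regulator of store-operated calcium entry, had 14.18, 15.39, 13.88 and 14.79 CPM in control KO lungs, 8.35, 11.0 and 12.8 CPM at 14 days, 12.18, 15.64, 14.72 and 14.58 CPM in control WT lungs and 8.47, 9.87 and 10.7 CPM at 14 days. The 14-day lungs lay below the controls in both genotypes without overlap, and the difference between the responses, 0.11, had a 95% interval of -0.21 to 0.43. *Cracr2a* fell by 0.48 on average on the log2 scale (FDR 0.0132). *Col6a1*, a collagen VI chain, fell by 0.31 in KO and 0.35 in WT lungs by the estimates, and by 0.33 on average (FDR 0.0132), with a difference of 0.05 (95% interval -0.17 to 0.26). The basement membrane genes *Hmcn1* and *Lamb1*, the growth factor receptor *Fgfr2* and the tetraspanin *Cd81* also fell on average, with differences of -0.14, -0.08, 0.16 and 0.16. *Lamb1* did not overlap between control and 14-day lungs in either genotype.

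Shared genes also rose. *Sav1*, the Salvador adaptor of the Hippo pathway, was at 65.48, 64.08, 63.74 and 59.53 CPM in control KO lungs and at 66.2, 73.97 and 76.82 CPM at 14 days, against 61.49, 55.65, 59.82 and 63.99 CPM and 68.94, 72.35 and 76.59 CPM in WT lungs. Neither genotype's groups overlapped, and the difference was -0.07 (95% interval -0.23 to 0.10). *Ccpg1*, a receptor for autophagy of the endoplasmic reticulum, rose by 0.19 on average (FDR 0.0251), also without overlap in either genotype. *Cars*, the cysteinyl-tRNA synthetase, rose by 0.35 on average (FDR 0.0251), with a difference of -0.13 (95% interval -0.39 to 0.12). *mt-Nd2*, a subunit of complex I encoded in mitochondrial DNA, rose by 0.26 on average (FDR 0.0294), with a difference of 0.08 (95% interval -0.12 to 0.28). *Fmnl2*, a formin, and *Rnf10*, a RING finger protein, rose by 0.36 and 0.26 on average, with differences of -0.07 and 0.25. The estimate for *Rnf10* was 0.38 in KO and 0.13 in WT lungs, and its groups lay apart in KO lungs alone.

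By list, the shared changes were counted for collagen and elastic fiber, cholesterol, alveolar and mitochondrial genes. Of 62 tested collagen and elastic fiber genes, 35 had negative responses in both genotypes, against 25.3% of all genes. The average response was lower at 14 days for 16 of them, 8 were shared and 9 undecided, against 2.31%, 2.91% and 2.15% of all genes. The list was not uniform, with 8 genes above and 2 below in the difference at an unadjusted p of 0.05, or 4 and 2 with GC offsets and 1 and 3 without the 4 lungs at the ends of the GC trend. The median difference turned from 0.07 to -0.04 and -0.08 in these. *Col1a1*, the main fibrillar collagen chain, had 135.4, 93.1, 72.29 and 124.8 CPM in control KO lungs and 98.54, 129.2 and 172.7 CPM at 14 days, and 118.4, 165.1, 148.3 and 110.2 CPM in control WT lungs and 56.08, 80.9 and 122.1 CPM at 14 days, a difference of 1.00 (SE 0.28, unadjusted p = 0.00169, FDR 0.322). *Loxl1*, a cross-linking enzyme of elastic fibers, was at 32.43, 38.38, 39.44 and 28.03 CPM in control WT lungs and at 13.5, 19.3 and 25.35 CPM at 14 days, without overlap, and at 23.56 to 39.55 and 20.7 to 41.03 CPM in KO lungs. It fell in WT lungs by 0.83 (SE 0.19, FDR 0.116), with a KO value of 0.03, and the difference of 0.87 (95% interval 0.31 to 1.43) did not pass the FDR. *Col4a6*, a basement membrane collagen, had the opposite order, with a fall of 0.45 in KO lungs (SE 0.08, FDR 0.0398) under the fold limit, a WT value of -0.08 and a difference of -0.37 (SE 0.11, FDR 0.349).

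Cholesterol synthesis genes had median responses of -0.15 in KO and -0.13 in WT lungs, and 18 of 29 were negative in both, with 8 lower on average at the FDR and 6 shared, against 2.31% and 2.91% of all genes. Of the alveolar type 2 genes, 16 of 23 were negative in both genotypes, 6 were lower on average and 4 shared, beside the same shares of all genes. *Sftpb*, a surfactant protein and the only member with an unadjusted p below 0.05 (0 members with GC offsets), had a difference of 0.29 (SE 0.11, unadjusted p = 0.015). Of the 15 genes encoded in mitochondrial DNA, 11 had positive responses in both genotypes, against 27.1% of all genes. On average 6 were higher and all of these were shared, against 2.48% and 2.91% of all genes. These genes are poor in GC, and with GC offsets 1 was called higher on average, the median WT response was 0.075 in place of 0.18 and the median difference turned from -0.07 to 0.04. Complex I genes encoded in the nucleus had medians of -0.04 and -0.09, so the mitochondrial and the nuclear genes had medians of opposite sign in both genotypes.

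Mature neutrophil genes had large median responses of the same sign in both genotypes, and whether these differed in size could not be decided. By the estimates 17 genes rose in both genotypes, 1 fell in both, 3 rose in KO lungs alone and 2 in WT lungs alone. They had a median response of 1.06 in KO lungs and 1.20 in WT lungs and a median difference of 0.02 over 23 genes. This median was -0.37 without the 14-day KO lung 6 and at most 0.11 without any other lung, and 0.11 with GC offsets. The average response was higher at 14 days for 15 of them, against 2.48% of all genes. All 15 were undecided, against 2.15% of all genes, with intervals of the difference that reached beyond 1.5-fold. Their mean level was 2.29, 2.37, 2.67 and 2.22 log2 CPM in control KO lungs and 1.93, 3.21 and 4.03 log2 CPM at 14 days, against 2.41, 2.05, 2.46 and 2.61 log2 CPM in control WT lungs and 2.68, 3.22 and 3.70 log2 CPM at 14 days. All 14-day WT lungs were above all control WT lungs, and of the 14-day KO lungs the lung 2, which also had high interferon targets, lay below all controls. Without the 2 lungs with high interferon targets the medians were 1.26 in both genotypes. *S100a8*, a calprotectin subunit chosen after its values were seen, had 8.96, 7.79, 14.7 and 6.83 CPM in control KO lungs, 5.80, 25.7 and 65.8 CPM at 14 days, 7.23, 5.09, 8.303 and 12.2 CPM in control WT lungs and 13.6, 27.2 and 65.1 CPM at 14 days. The average rose by 1.84 on the log2 scale (FDR 0.0439), and the difference was -0.35 with a 95% interval of -1.94 to 1.24. *Cxcr2*, the chemokine receptor that releases neutrophils from the marrow, was called in both genotypes, with a rise of 1.02 in KO and 1.34 in WT lungs and a difference of -0.33 (95% interval -1.20 to 0.54). *Ppp1r3d*, a glycogen-targeting subunit of protein phosphatase 1, was also called in both, at 1.16 and 1.26.

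Interferon target levels were spread by single lungs. The 38 tested type I interferon targets had medians of 0.71 in KO and 0.48 in WT lungs, none with an unadjusted p below 0.05 for the difference, whose median of 0.20 was -0.54 without the 14-day KO lung 2, 0.79 without the 14-day WT lung 5 and -0.20 without the control WT lung 4. Without the 14-day KO lung 2, at 6.62 log2 CPM, and the 14-day WT lung 5, at 6.70 log2 CPM, against group medians of 4.17 and 4.63 log2 CPM, the medians were -0.06 in KO and -0.14 in WT lungs. Without the 4 lungs at the ends of the GC trend, the 14-day WT lung 5 among them, they were 0.72 and -0.33. *Irf7*, the factor that amplifies type I interferon, ran from 14.17 to 166 CPM in 14-day KO lungs around a median of 17.81 CPM and from 11.19 to 157.8 CPM in 14-day WT lungs around 28.54 CPM. Its difference of 1.11 had a 95% interval of -1.12 to 3.33, and without the 14-day KO lung 2 it was -0.17. Interferon gamma targets went from medians of 0.40 and 0.37 to 0.13 and 0.03 without both lungs.

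Genes called in one genotype were set beside their value in the other. *Marco*, a scavenger receptor of macrophages, was at 12.78, 9.458, 7.359 and 12.47 CPM in control WT lungs and at 2.81, 3.88 and 5.59 CPM at 14 days, without overlap, against 7.21 to 11.6 and 4.72 to 12.4 CPM in KO lungs. Its KO value was -0.41 and the difference 1.01 (95% interval 0.29 to 1.73), which did not pass the FDR (0.438). *Irx1*, a homeobox factor, fell in WT lungs, with a KO value of -0.31 and a difference of 0.42 (95% interval -0.04 to 0.88). *Dhrs9*, a retinol dehydrogenase, rose in WT lungs, with a KO value of 0.75 and a difference of -0.99 (95% interval -1.97 to -0.01).

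Of the genes called in KO lungs, *Bahcc1*, a chromatin protein, was at 16.3 to 17.72 CPM in controls and 22.73 to 36.69 CPM at 14 days, with 20.74 to 30.37 and 17.64 to 29.98 CPM in WT lungs and a difference of 0.85 (95% interval 0.39 to 1.303, FDR 0.3). *Reep6*, which shapes the endoplasmic reticulum, had a WT value of 0.02 and a difference of 0.83 (95% interval 0.30 to 1.36). *Slc40a1*, the iron exporter ferroportin, and *Serpina10*, a protease inhibitor, had WT values of 0.59 and 0.66 and differences whose intervals included 0. *Gbgt1*, a glycosyltransferase, was lower in all 14-day KO lungs than in all KO controls, with a WT value of -0.12 and a difference of -0.71 (95% interval -1.22 to -0.20).

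Lists for pathways that the study examined had medians between -0.04 and 0.22 in the difference. TGF-β pathway genes had a median difference of 0.10 over 39, or 0.05 with GC offsets. At an unadjusted p of 0.05, 5 were above (12.8%) and 3 below (7.69%), against 4.78% and 3.75% of all genes. With GC offsets 2 and 1 of the 39 had such a p, against 465 and 487 of all 16029 genes. *Tgfb1*, the ligand, had 10.45, 10.32, 6.454 and 8.722 CPM in control KO lungs, 11.41, 13.5 and 17.36 CPM at 14 days, 11.09, 14.0, 10.57 and 11.83 CPM in control WT lungs and 7.05, 10.8 and 12.01 CPM at 14 days. KO groups did not overlap, it rose by 0.66 in KO lungs (SE 0.17, FDR 0.173) and the difference was 0.88 (95% interval 0.40 to 1.36, FDR 0.3). Of receptors and signal carriers, *Eng*, the coreceptor endoglin, had 0.33 (SE 0.11), *Bmpr1a*, a BMP receptor, -0.25 (SE 0.08) and *Smad5*, its mediator, -0.20 (SE 0.07). Of inhibitors, *Smad7* had 0.42 (SE 0.14) and *Smurf2*, a ubiquitin ligase, -0.25 (SE 0.09). NF-κB and immediate early genes had medians of 0.08 in KO and -0.17 in WT lungs and of 0.22 for the difference, with 40 of 50 above 0. At an unadjusted p of 0.05, 2 were above (4%), which is no more than the 4.78% of all genes. With GC offsets the median was 0.13, and 1 gene had such a p. *Nfkb2* had a difference of 0.56 (SE 0.15, FDR 0.3) and *Klf2*, a flow-induced endothelial and lymphocyte factor, of 0.82 (SE 0.28).

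VEGF and angiogenesis genes had a median difference of 0.08, which was -0.0099 with GC offsets, with 3 above (8.11%) and 2 below (5.41%) at an unadjusted p of 0.05, against 4.78% and 3.75% of all genes. Without the 4 lungs at the ends of the GC trend the counts were 0 and 2 and the median -0.06. With all lungs, genes with such a p included *Pdgfb* (0.49, SE 0.16) and *Notch4* (0.52, SE 0.18) above and the Notch ligand *Jag1* (-0.27, SE 0.11) and the tip cell gene *Esm1* (-0.69, SE 0.31) below. Complement genes had a median of 0.01 and inflammatory cytokine and receptor genes of 0.01, which turned to -0.03 and -0.04 with GC offsets. Reactive oxygen and antioxidant genes had a median of 0.06, or 0.04 with GC offsets. Xenobiotic metabolism genes had a median of -0.04, with 26 of 42 below 0, or -0.08 with GC offsets. The median of p53 targets turned from 0.03 to -0.02. In the CLIC family the difference was 0.07 for *Clic1*, 0.19 for *Clic3*, -0.03 for *Clic4* (95% interval -0.33 to 0.26), -0.07 for *Clic5* and -0.07 for *Clic6*, with intervals that included 0 for all of these and with signs that turned under GC offsets for *Clic1* and *Clic3*.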

How the data were processed

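RNA was sequenced from stranded mRNA libraries of 32 samples, of which the 20 lungs were used here. The authors aligned the reads to mm10 (GRCm38) with STAR and deposited RSEM's expected counts per gene, here as whole numbers without normalization, for 29511 genes. They also deposited FPKM, scaled by the authors for transcript length and library size, which was used only to compare levels between genes. Gene positions came from GENCODE M21 for 29244 genes, and promoters from RefSeq.

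Counts were tested with edgeR 4.0.16 in R 4.3.3 (TMM normalization, filterByExpr, quasi-likelihood F test) in one fit with a mean for each of the 4 groups. The contrasts were the KO response, the WT response, their average and their difference, each adjusted by Benjamini-Hochberg over 16029 genes. FDR limits were 0.25, with a 1.5-fold change for a single genotype, after the study's methods for lungs. The SE is the log2 fold change divided by the square root of F. CPM were TMM-normalized without a prior count, and list levels are means of log2 CPM with a prior count of 1. Replicate pairs gave no sign of a library deposited again (chi-squared per degree of freedom 2.55 to 10.2 over 42 pairs). p-values measure the spread between animals of each group.

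Named are the genes called for the difference, the 12 with the smallest p in each direction (of which the text gives a part), the 6 shared genes in each direction, the 5 genes with the smallest p called in each genotype and direction, up to 5 members of a described list per direction at an unadjusted p below 0.05 (otherwise the 2 with the smallest p), and the nuclear factor I and CLIC families. Members, lists and tests were chosen with earlier results of these data known. List members came from 79 lists, which were described and not tested.

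Alternatives were DESeq2 1.42.0, RLE size factors, other filters and limits, the replicate number as a block, GC offsets (loess, span 0.5, genes with a mean count of at least 20) and each lung left out in turn. Leaving out the lungs with high interferon targets or at the ends of the GC trend, and DESeq2 with GC offsets, were chosen after seeing the data. Replicate numbers did not pair the samples: deviations of same-numbered samples correlated at -0.299 to 0.321 over 26 pairs, and 5 were over 0.1. The steps were tested on simulated data. Summaries were made in Python (3.11.15), and figures with matplotlib 3.10.9. The tumors were not used.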

Additional observations from a re-analysis of the deposited data

Results flagged for a closer look

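The KO and the WT response differed by the test of the difference for 8 genes, with values (KO minus WT, log2) of 0.858 for *Nfix*, 1.327 for *Rpl15-ps3*, 0.583 for *Mgat4b*, 0.497 for *Lrp10*, 0.791 for *Ltbp4*, 0.670 for *Rnf44*, 0.366 for *Zc3h7b* and 0.736 for *Prrc2a*.

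Of 144 groups of values examined, 14 had a lung far from the others of its group by Dixon's test, where chance gives about 1 in 20. All 14 are levels of gene lists, and the lists share lungs, so these are not separate chances. The values are mean log2 CPM of the list. The 14-day KO lung 2 was the highest for type I interferon targets (6.620) and interferon gamma targets (6.167), the 14-day WT lung 5 for type I interferon targets (6.695) and the control WT lung 4 for type I targets (5.477), interferon gamma targets (5.188) and cytotoxic and NK genes (3.285). The control KO lung 4 was the lowest for immunoglobulin segments (2.043) and MHC class II presentation (4.541) and the highest for adipocyte (4.016) and endothelial genes (6.690). The control KO lung 1 was the lowest for neutrophil granule genes (4.194). The 14-day KO lung 1 was the lowest for alveolar type 2 genes (7.874) and the highest for ciliated airway genes (4.385), and the 14-day KO lung 6 was the highest for skeletal muscle genes (2.687). What part these lungs have in the differences was not tested beyond the values without single lungs given above.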

How the results depend on the processing

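Counts are given in the order difference, KO response, WT response and average response where all were moved by over 1.5 times, against 8, 42, 92 and 769. DESeq2 gave 195 for the difference (189 of opposite sign, 6 of the same sign) and 22 for WT. With no filter, WT was 58, the average 414 and shared genes 217. With the replicate block, the counts were 1 (1 of opposite sign), 129, 152 and 1191, with 740 shared and 524 undecided. With GC offsets, they were 1 (1 of opposite sign) for the difference, 25 for KO and 53 for WT. With GC offsets and the block, they were 1 (1 of opposite sign), 89 for KO and 1432 for the average, with 949 shared and 525 undecided. DESeq2 with GC offsets gave 16 (16 of opposite sign) and 25 for KO. Without the 2 lungs with high interferon targets, 5 differed (5 of opposite sign) and 81 were called in KO. Without the 4 lungs at the ends of the GC trend, 0 differed (0 of opposite sign) and 0 were called in WT by edgeR. At an FDR of 0.05, the counts were 1, 0, 0 and 39, and at 0.1 they were 1, 0, 6 and 112. With no fold limit, 169 were called in KO and 373 in WT, and with a 1.5-fold limit 5 differed. With the narrower limit on the interval, 171 genes were shared. With each lung left out in turn, the difference ran from 1 to 127 (opposite signs 1 to 127), KO from 2 to 60, WT from 11 to 176, the average from 383 to 1075, shared genes from 194 to 662, undecided genes from 187 to 456, and lists beyond 0.25 from 12 to 21, against 15. The replicate numbers do not pair these samples, so the block is only another fit.

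The sign of the difference turned for 7 of 172 genes. With GC offsets it was -0.045 for *Clic1*, -0.033 for *Clic3*, 0.039 for *Nfia* and 0.055 for *Nfib*. With GC offsets and the replicate block it was -0.045, -0.029, 0.038 and 0.055, and 0.0016 for *Clic4*. With DESeq2 and GC offsets it was -0.043, -0.032, 0.040 and 0.054. Without the lungs with high interferon targets it was 0.013 for *Nfib*. With each lung left out, *Clic4* ran from -0.083 to 0.051, *Irf7* from -0.17 to 1.997, *Isg15* from -0.63 to 2.37, *Nfia* from -0.091 to 0.0017 and *Nfib* from -0.065 to 0.0066. Over the 172 genes and all alternatives, 4814 values kept their direction and their side of the threshold, 190 lost the call and 106 gained one, and of the medians of 28 lists 814 moved by less than the spread between lungs and 26 by more. The cause of these changes was not tested. Depth left 16029 genes to test, and at this number of lungs a difference of the median undecided gene was known only within an interval 1.18 wide on the log2 scale.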

Other observations

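Some families not described above had small differences in one direction. Of 30 tested genes of serine/arginine-rich splicing factors and hnRNPs, which bind pre-mRNA and steer splicing, 26 had a KO response below the WT response and 5 an unadjusted p below 0.05, with a median difference of -0.10. With GC offsets the median was -0.03 and 0 had such a p. *Hnrnpu*, a nuclear scaffold protein, was at 325.2, 329.6, 340.1 and 331.6 CPM in control KO lungs, 292.3, 310.1 and 341.4 CPM (lowest, median, highest) at 14 days, 278.9, 261.9, 278.7 and 310.1 CPM in control WT lungs and 276.3, 309.1 and 322.7 CPM at 14 days. Its control lungs did not overlap between genotypes, and its difference was -0.21 (SE 0.08, edgeR unadjusted p = 0.0126). *Hnrnpa2b1* had a difference of -0.20 (SE 0.08), and its WT groups did not overlap. Of 329 tested zinc finger genes named Zfp, 223 were below 0, with 9 above and 20 below at an unadjusted p of 0.05 and a median of -0.10. With GC offsets 9 were above and 13 below, and the median was -0.05.

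The 22 tested genes of MHC class I presentation, which shows peptides from inside the cell to CD8+ T cells, had a median difference of 0.21, with 3 at an unadjusted p below 0.05. With GC offsets the median was 0.12 with 1 such gene. *Tapbp*, tapasin of the peptide loading complex, had 113.1, 100.3, 94.72 and 98.59 CPM in control KO lungs and 104.8, 125.4 and 185.8 CPM at 14 days, against 116.8, 138.2, 134.9 and 132.8 CPM in control WT lungs and 110.7, 118.8 and 145.3 CPM at 14 days, a difference of 0.45 (SE 0.17, edgeR unadjusted p = 0.0122). Control KO lungs were all below control WT lungs, and the other pairs of groups overlapped. *H2-T22*, a nonclassical class I gene whose reads may be shared with its paralogs, had a difference of 1.01 (SE 0.44). The 22 tested genes of ciliated airway cells had a median difference of -0.11, with 8 above and 14 below 0 and 4 below at an unadjusted p of 0.05. Without the 14-day WT lung 4 this median was -0.064. *Cfap126*, a protein of the cilium base, had a difference of -0.66 (SE 0.21, edgeR unadjusted p = 0.00519), with values in KO lungs of 6.16, 8.38, 7.75 and 7.77 CPM in controls and 5.16 to 8.29 CPM at 14 days, and in WT lungs of 5.27 to 7.36 and 7.07 to 10.2 CPM.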
